A study of Mus musculus with 2 samples.

Results

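Six-family and Eya-family transcripts were followed in teratoma RNA through 9 genes, Six2, Six3, Six4, Six5, Six6, Eya1, Eya2, Eya3 and Eya4. These were the rows of the deposited expression table that carried those gene symbols, 9 of 45777 genes, and other rows of the same families are not reported here. Six-family proteins are homeodomain transcription factors and Eya proteins are their coactivators, which also carry a phosphatase domain. Together with Pax and Dach proteins they form a network first worked out in the fly eye. In the mouse, Six3 and Six6 are known for the eye field, the retina and the ventral forebrain, whereas Six4, Eya1, Eya2 and Eya4 are known for skeletal muscle, the cranial placodes and the ear, Six2 for nephron progenitors and craniofacial mesenchyme, and Six5 and Eya3 for expression in many tissues.

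Teratomas grown from E14 cells, a wild-type mouse ESC line, were compared with teratomas grown from E14-Sox2TA/WT cells, in which CRISPR-Cas9 editing placed the Sox2 T258A change on 1 allele. The E14-Sox2TA/WT cells were expanded from individually sorted cells, and the sources used here do not give the number of clones behind the library. Both kinds of cells were injected under the skin of BALB/c-nu mice, which lack a thymus, so each tumour may hold host mouse tissue that the table does not separate. There was 1 library per group, and whether each held RNA from a single tumour or from several was not stated, so no difference given here has a replicate check within these data.

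The E14 library had 50529171 reads on genes and the E14-Sox2TA/WT library had 49030281. The labels give teratoma as the tissue, and all 18 markers of the germ layers examined had reads in both libraries, among them Tubb3 of neurons (1722 and 170 TPM), Col1a1 of connective tissue (49.9 and 152 TPM), Krt8 of simple epithelium (118 and 426 TPM) and Afp of visceral endoderm and liver (0.614 and 151 TPM), each pair with E14 first. The libraries also differed in ways that the genotype label does not cover. The Y-linked genes Ddx3y, Eif2s3y, Kdm5d and Uty held 5453 reads in E14 and 0 in E14-Sox2TA/WT, and mitochondrial genes held 5.17% and 9.70% of the TPM. The part of these differences in the values below was not tested. TPM scales reads by transcript length and then to a fixed sum in each library, so levels can be set side by side between genes. With 1 added to each level, the log2 ratio of E14-Sox2TA/WT over E14 was taken over the 11578 genes that reached 10 TPM in either library. Its median was -0.18 by TPM and 0.01 by FPKM, so a member near -0.18 moved with the middle of these genes.

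Six3 and Six6 were high in the E14 teratoma library and nearly absent from the E14-Sox2TA/WT library, whereas the other 7 members lay between 1.30-fold lower and 3.22-fold higher. Six4 was the single member that was higher by more than counting error allowed at a 2-fold limit. By a rule taken from the study's methods for differentially expressed genes and applied here to TPM, a fold change above 2 with at least 10 TPM in at least 1 library, 5 of the 9 members could be tested, and 2 were called lower and 0 higher. Over all genes this rule called 18.7% lower and 10.8% higher. A second rule asked that the whole 95% counting interval of the ratio lie beyond 2-fold, among genes with at least 10 reads over both libraries. All 9 members could be tested by it, and 2 were lower (Six3 and Six6), 1 was higher (Six4) and 6 were not called, against 13.6% of all genes lower and 18.0% higher. Intervals are Clopper-Pearson intervals for ratios and exact Poisson intervals for levels. They cover counting error only and compare these libraries, not the genotypes.

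**Figure D1:**
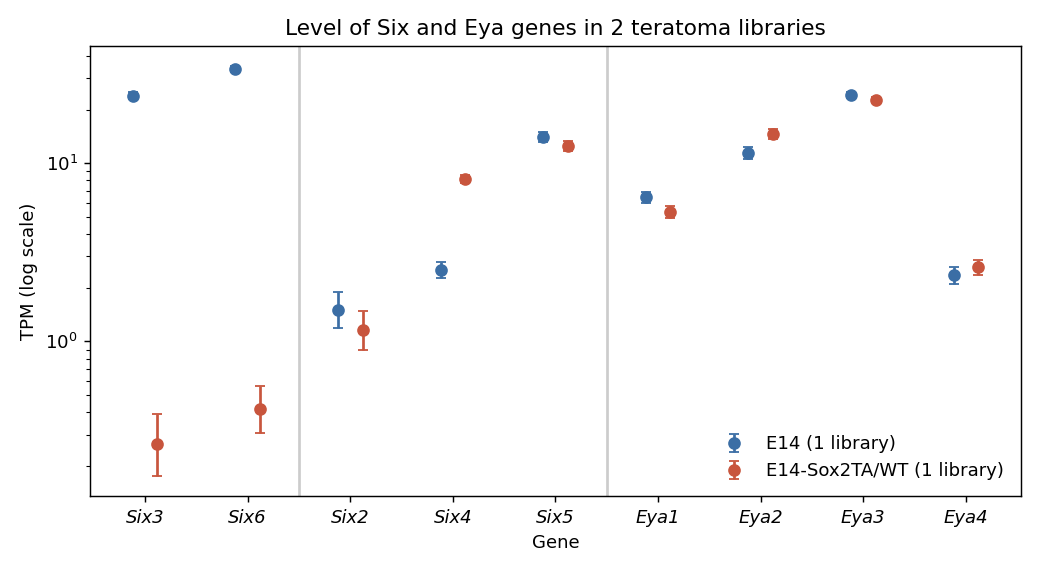
TPM on a log scale of the 9 members in the E14 library (blue) and the E14-Sox2TA/WT library (red), 1 library each, with 95% exact Poisson intervals as bars and grey lines between the eye-field members, the other Six genes and the Eya genes. Six3 and Six6 lie above 20 TPM in E14 and below 1 TPM in E14-Sox2TA/WT, while the points of the other 7 genes lie close together or, for Six4, higher in E14-Sox2TA/WT.

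Six3 represses Wnt signaling in the anterior neural plate and is required for the forebrain and the eye. Its gene (NCBI gene 20473) spans 85613608 to 85626191 of chromosome 17 (GRCm38, plus strand) and has up to 3 exons. It had 2004 reads in E14 and 27 in E14-Sox2TA/WT, or 23.9 TPM (22.9 to 25.0) and 0.267 TPM (0.176 to 0.389). The level was 89.5-fold lower in the E14-Sox2TA/WT library, with an interval from 61.3 to 136. With 1 added to each TPM, which draws the ratio of a low level toward 0, the log2 ratio of Six3 was -4.30, against a plain log2 ratio of -6.48. In bulk RNA, fewer cells that express a gene and less RNA per cell cannot be told apart.

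Six6, a close relative of Six3, is known for the growth of the retina, the optic chiasm and the pituitary. It is NCBI gene 20476, on chromosome 12 from 72939882 to 72944899 on the plus strand, with 2 exons. It had 3266 and 46 reads, or 33.8 TPM (32.6 to 34.9) in the E14 library and 0.419 TPM (0.306 to 0.558) in the E14-Sox2TA/WT library. Six6 was 80.7-fold lower, with an interval from 60.3 to 110. Its log2 ratio was -4.62 with 1 added and -6.33 plain. The intervals of the Six3 and Six6 folds overlapped. Within each library the relation of their levels was also similar, Six3 standing at 0.708 of the TPM of Six6 in E14 (0.669 to 0.748) and at 0.638 in E14-Sox2TA/WT (0.382 to 1.05).

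The sequence before the annotated start of Six3 and of Six6 is shown because these were the members called lower and they lie on different chromosomes. Both windows hold 250 bases before the start in the RefSeq annotation of GRCm38.p6, 5′ to 3′ on the gene's strand, at chr17:85620584-85620833 for Six3 and chr12:72939632-72939881 for Six6. The Six3 window lies in the first intron of a longer Six3 transcript in the GENCODE annotation. Capitals mark the longest run of bases that the windows share.
Six3: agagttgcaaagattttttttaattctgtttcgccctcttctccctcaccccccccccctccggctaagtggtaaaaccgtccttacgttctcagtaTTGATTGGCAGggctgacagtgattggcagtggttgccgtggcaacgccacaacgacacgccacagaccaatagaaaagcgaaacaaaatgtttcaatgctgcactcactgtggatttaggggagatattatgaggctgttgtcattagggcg
Six6: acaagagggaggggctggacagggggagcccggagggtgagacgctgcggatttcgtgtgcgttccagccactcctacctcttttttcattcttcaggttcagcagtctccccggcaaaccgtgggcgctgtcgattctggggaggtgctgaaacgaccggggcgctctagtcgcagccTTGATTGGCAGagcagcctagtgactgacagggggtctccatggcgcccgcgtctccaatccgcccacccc

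The shared run TTGATTGGCAG has 11 bases. It ends 143 bases before the start of Six3, from -153 to -143, and lies nearer the start of Six6, from -71 to -61. It occurred in 11 of 32851 promoter windows of the same length, or 0.0335%, searched on both strands. A shared run of such length was not particular to this pair, since Six6 and Six2 shared the 12 bases GTCTCCATGGCG, also present in 11 windows (0.0335%). The GC content of the windows differed, at 48.8% for Six3 and 62.8% for Six6. Motifs were then searched on both strands in the 9 windows of the 7 members that matched, which left out Eya1 and Eya2. TGATAC, a motif bound by Six-family factors, was in 0 of the 9 windows and in 4.64% of all windows. TCAGGTT, a second motif of that family, was in 2 of them, those of Six4 and Six6, and in 3.49% of all, and in Six6 it ran from -157 to -151. AACAAT, the core of the Sox motif, was in 1 of them, that of Eya3, and in 9.42% of all. None of the 3 motifs contains another, and a match is a description of these letters alone.

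Six3 shares its locus with Six3os1, a long noncoding RNA gene on the opposite strand (chromosome 17 from 85601932 to 85618396). Six3os1 had 2940 reads in E14 and 43 in E14-Sox2TA/WT, or 28.2 and 0.290 TPM. It was 97.2-fold lower, with an interval from 72.0 to 135, which overlapped that of Six3. The sources used here do not say if reads were counted by strand, so reads in the shared stretch could belong to either gene. That stretch was short, with 106 exon bases in common, or 1.95% of the exon bases of Six3 and 0.892% of those of Six3os1.

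**Figure D2:**
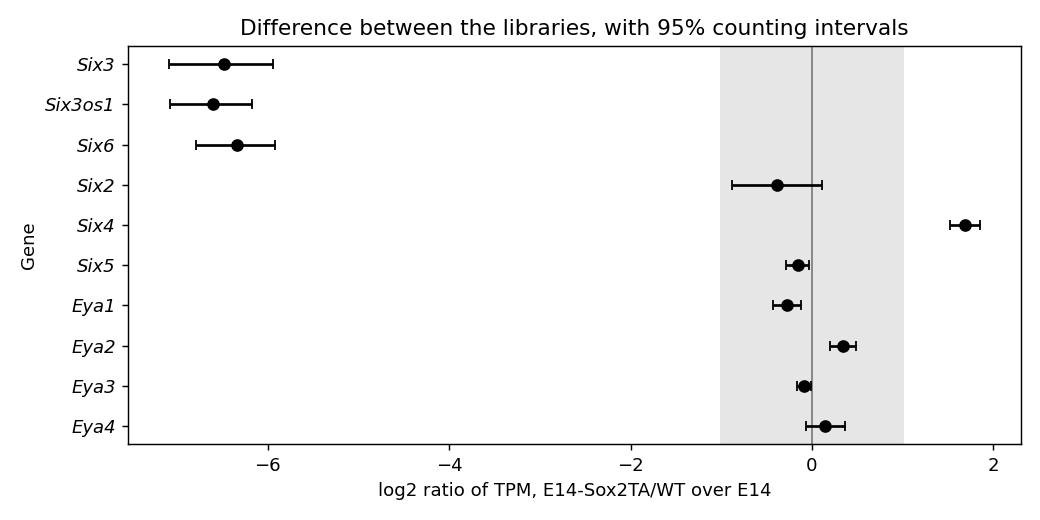
Log2 ratio of TPM, E14-Sox2TA/WT over E14 with nothing added, for the 9 members and Six3os1, with 95% Clopper-Pearson intervals as bars and grey shading for changes within 2-fold. Six3, Six3os1 and Six6 lie left of -5, Six4 lies right of the shading, and the other 6 members lie inside it.

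Among the other Six genes, Six4 was higher, and Six2 and Six5 lay within 1.5-fold. Six4 acts with its relatives in muscle precursors and sensory neurons. The gene (NCBI gene 20474, chromosome 12 from 73099609 to 73114031, minus strand) had 387 reads in E14 and 1438 in E14-Sox2TA/WT, or 2.52 TPM (2.27 to 2.78) and 8.11 TPM (7.70 to 8.54). It was 3.22-fold higher, with an interval from 2.88 to 3.61. Since neither level reached 10 TPM, the study's rule did not test it. Mnat1, a subunit of the CDK-activating kinase, overlaps Six4 and had 1094 and 1892 reads, or 25.4 and 29.5 TPM. The ratio of TPM was 1.16 for Mnat1, and the part of the overlap in the value of Six4 was not tested.

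Six2 maintains the nephron progenitors of the embryonic kidney. It is NCBI gene 20472 on chromosome 17 from 85662736 to 85688254, minus strand. It was the lowest member in the E14 library, with 77 reads there and 66 in the E14-Sox2TA/WT library, or 1.51 TPM (1.19 to 1.88) and 1.16 TPM (0.895 to 1.47). The ratio was 0.768, and its interval from 0.544 to 1.08 includes no change. Six5, which lies beside the myotonic dystrophy kinase gene, is NCBI gene 20475 on chromosome 7 from 19094544 to 19098549, plus strand. It had 966 and 968 reads, or 14.01 TPM (13.1 to 14.9) and 12.6 TPM (11.8 to 13.4), a ratio of 0.897 (0.819 to 0.981). The direction of Six5 turned with the scaling, at a plain log2 ratio of -0.16 on TPM and 0.04 on FPKM. Gm4969, which overlaps Six5, had 158 and 35 reads, or 2.65 and 0.473 TPM.

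The 4 Eya genes all lay within 1.5-fold between the libraries, and none was called. Eya1, known for the ear and kidney defects of branchio-oto-renal syndrome, is NCBI gene 14048 on chromosome 1 from 14168953 to 14311035, minus strand. It had 730 reads in E14 and 672 in E14-Sox2TA/WT, or 6.43 TPM (5.97 to 6.91) and 5.32 TPM (4.92 to 5.74). Its ratio was 0.828 (0.744 to 0.920). With 1 added its log2 ratio was -0.23, or 0.051 below (-0.051) the median of genes that reached 10 TPM, which Eya1 itself did not. Among genes with at least 1 TPM in at least 1 library, the median was -0.058. Eya2, expressed in placodes and muscle precursors, is NCBI gene 14049 on chromosome 2 from 165595028 to 165771727, plus strand. It had 678 and 949 reads, or 11.5 TPM (10.6 to 12.4) and 14.6 TPM (13.6 to 15.5). With a ratio of 1.27 (1.15 to 1.40) it was the Eya gene farthest above the median of genes that reached 10 TPM, by 0.50 on the log2 scale with 1 added. Gm29993, a noncoding gene that overlaps Eya2, had 5 and 6 reads.

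Eya3, a broadly expressed member, is NCBI gene 14050 on chromosome 4 from 132639025 to 132724765, plus strand. It had 3005 and 3160 reads, or 24.1 TPM (23.3 to 25.0) in the E14 library and 22.7 TPM (21.9 to 23.5) in the E14-Sox2TA/WT library. Its ratio was 0.942 (0.896 to 0.990), and its direction turned with the scaling, at a plain log2 ratio of -0.09 on TPM and 0.11 on FPKM. Eya4, known for hearing and the heart, is NCBI gene 14051 on chromosome 10 from 23102962 to 23350838, minus strand. It had 330 and 408 reads, or 2.35 TPM (2.10 to 2.61) and 2.60 TPM (2.35 to 2.86). The ratio was 1.11, and its interval from 0.956 to 1.28 includes no change. LOC115487569, a small nuclear RNA gene within Eya4, had 0 reads in both libraries.

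The members were then contrasted by role. The median log2 ratio with 1 added was -4.46 for Six3 and Six6 and -0.083 for the other 7 members, a difference of -4.37. Taken over the counting intervals of the members, the difference ran from -4.64 to -4.17. Of the 7 other members 3 were higher and 4 lower on TPM, with a median ratio of 0.942. Set against the muscle and placode members alone (Six4, Eya1, Eya2 and Eya4), whose median log2 ratio was 0.21, the difference was -4.67.

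The order of the levels differed between the libraries, both in the place of the eye-field members and among the others. In the E14 library Six6 was highest, followed by Eya3 and Six3, then Six5, Eya2, Eya1, Six4, Eya4 and Six2. Neighbours in that order differed beyond counting error except Eya3 and Six3, at a ratio of 1.01 (0.953 to 1.07), and Six4 and Eya4, at 1.07 (0.925 to 1.25). In the E14-Sox2TA/WT library the order was Eya3, Eya2, Six5, Six4, Eya1, Eya4, Six2, Six6 and Six3, and only the last pair did not differ beyond counting error, at a ratio of 1.57 (0.954 to 2.62). Six4 stood at 0.0746 of the TPM of Six6 in E14 (0.0670 to 0.0829) and at 19.4 times it in E14-Sox2TA/WT (14.4 to 26.6).

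The makeup of the Six-family transcripts differed between the libraries far more than that of the Eya transcripts. The summed level of the 5 Six-family genes was 75.7 TPM in E14 and 22.5 TPM in E14-Sox2TA/WT. In E14, Six6 made up 44.6% of it, Six3 31.6%, Six5 18.5%, Six4 3.33% and Six2 1.99%. In E14-Sox2TA/WT, Six5 made up 55.8%, Six4 36.0%, Six2 5.14%, Six6 1.86% and Six3 1.19%. The 4 Eya genes summed to 44.4 and 45.2 TPM. Eya3 made up 54.4% of the Eya sum in E14 and 50.3% in E14-Sox2TA/WT, Eya2 25.9% and 32.2%, Eya1 14.5% and 11.8%, and Eya4 5.29% and 5.75%. Eya3 was the most abundant of the 4 coactivators in both libraries, with Eya2 next.

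**Figure D3:**
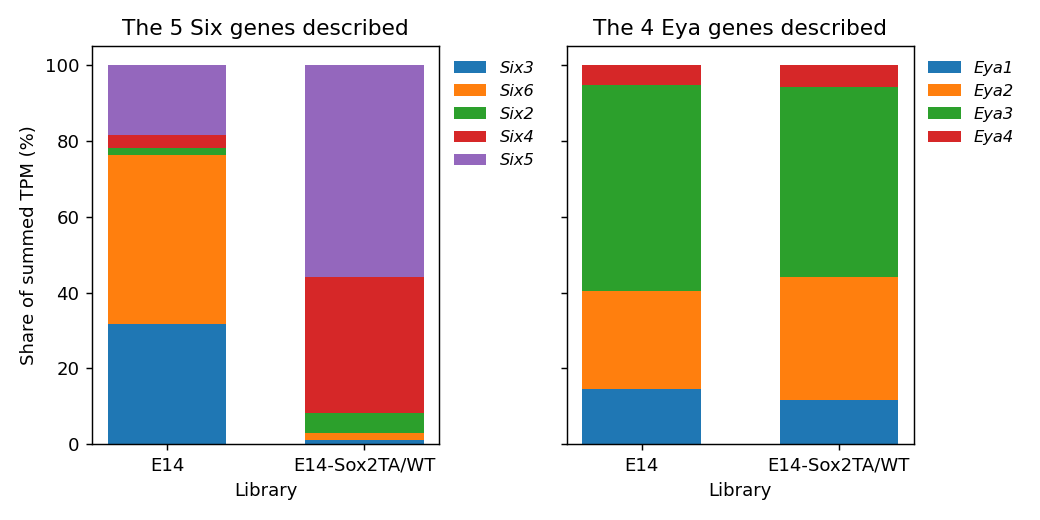
Share of the summed TPM, in percent, held by each of the 5 Six-family genes (left) and each of the 4 Eya genes (right) in the E14 and E14-Sox2TA/WT libraries, 1 bar per library. Six3 and Six6 fill 31.6% and 44.6% of the left bar in E14 and 1.19% and 1.86% in E14-Sox2TA/WT, while the Eya bars look alike.

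Six3 lies 36.5 kb from Six2 on chromosome 17, and Six6 lies 155 kb from Six4 on chromosome 12, so each eye-field gene has a family neighbour of another role. Six2 kept a ratio of 0.768 beside an 89.5-fold lower Six3, and Six4 was 3.22-fold higher beside an 80.7-fold lower Six6. Around Six3, 4 genes within 500 kb had at least 1 TPM, and all 4 had a negative log2 ratio, with a median of -1.38. Apart from Six3os1 and Six2 these were Camkmt, a calmodulin methyltransferase (19.3 and 5.41 TPM), and Srbd1, an RNA-binding domain gene (18.2 and 7.98 TPM), both called lower. Around Six6, 10 genes had at least 1 TPM, of which 8 had a positive and 2 a negative log2 ratio, with a median of 0.20. The gene 4930447C04Rik, which RefSeq also lists as Six6os1, lies 21.9 kb from Six6. It had 117 and 1245 reads, or 1.64 and 16.8 TPM, 10.2-fold higher (8.44 to 12.4), opposite to Six6. In the same window Ppm1a, a protein phosphatase, had 73.2 and 48.5 TPM, and Pcnx4 had 31.0 and 10.2 TPM. These neighbours, other than rows that overlap a member, were named after their values were seen.

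The genes around the other members were summarised in the same way. Within 500 kb and with at least 1 TPM, the median log2 ratio with 1 added was -0.53 over 39 genes around Six5, -0.48 over 11 around Eya2, 0.34 over 33 around Eya3 and 0.43 over 9 around Eya4. Around Six2 it was -2.29 over 5 genes, which include Six3 and Six3os1, and around Six4 it was 0.22 over 10 genes, which include Six6. A single gene around Eya1 reached 1 TPM. The neighbours of Six3 and Six2, and those of Six6 and Six4, are largely the same genes.

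**Figure D4:**
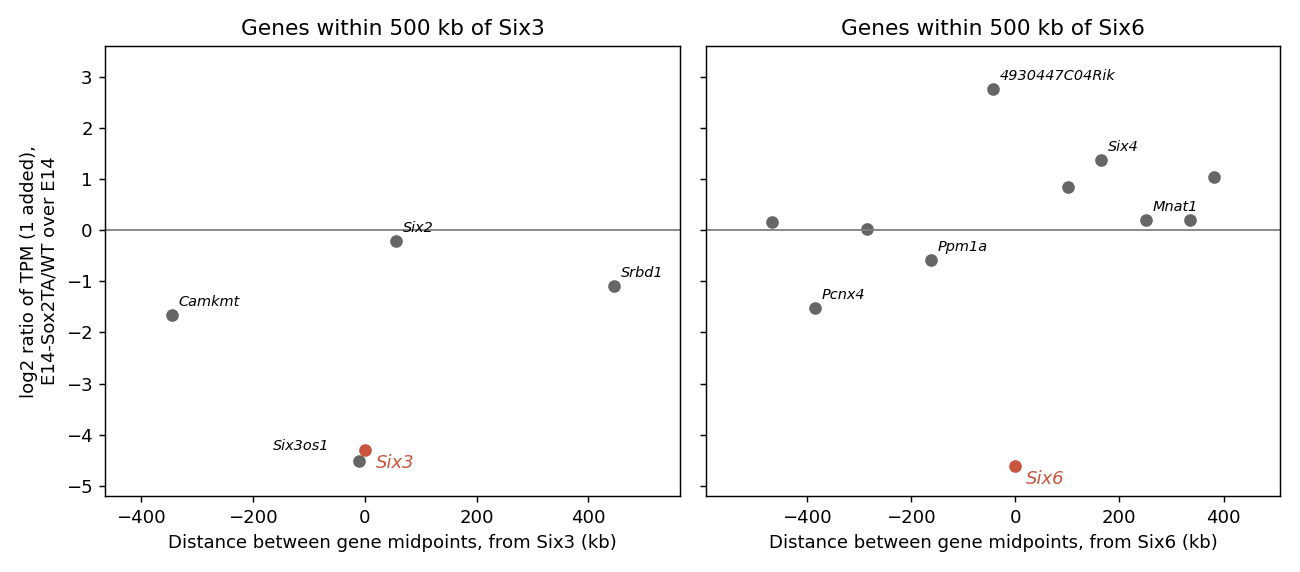
Log2 ratio of TPM with 1 added, E14-Sox2TA/WT over E14, of genes with at least 1 TPM in at least 1 library within 500 kb of Six3 (left) and Six6 (right), against the distance between gene midpoints in kb. Six3 and Six3os1 lie near -4.4 with Six2 near 0 beside them, and Six6 (-4.62) lies below genes of which 8 of 10 have a positive ratio.

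Genes of the tissues in which the families act were taken from 12 lists assembled by hand, 190 genes in all. They were compared with the 18558 genes with at least 1 TPM in at least 1 library, whose median log2 ratio with 1 added was -0.058. The calls in each list below stand beside the shares over all genes. These were 18.7% lower and 10.8% higher by the study's rule, and 13.6% lower and 18.0% higher by the rule on the counting interval. The genes nearest to Six3 and Six6 in level in both libraries were sought among 149 list genes by distance on the log2 scale of TPM with 1 added, over these 2 libraries only. Nearest to Six3 were Rax, the homeobox gene that sets up the eye field (16.9 and 0.581 TPM, distance 0.57), then Dlx6 of placodes, branchial arches and forebrain interneurons (17.8 and 0.691 TPM, 0.58) and Nr2e1 of the optic vesicle and forebrain (13.98 and 0.375 TPM, 0.74). Nearest to Six6 were Vax1 of the optic stalk and ventral forebrain (40.2 and 1.46 TPM, 0.83), then Dlx6 (0.92) and Rax (0.97).

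Eye field and optic vesicle genes were mostly lower, as were Six3 and Six6, which were not on the list. Of 14 with at least 1 TPM, 11 were lower and 3 higher, with a median log2 ratio of -1.36, and the study's rule called 6 of 10 lower and 0 higher. Lhx2, needed for the optic vesicle to become an optic cup, had 50.2 and 1.63 TPM and was 30.8-fold lower (25.3 to 37.8). Vax1 was 27.6-fold lower (23.0 to 33.3) and Rax 29.1-fold lower. Otx2 and Hes1, which are expressed beyond the eye, changed less, with 45.2 and 36.4 TPM for Otx2 and 78.4 and 53.6 TPM for Hes1. Neither was called.

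The ventral forebrain and pituitary list moved further. Among its 17 genes, 15 were lower and the median log2 ratio was -3.07. Of the 12 that could be tested, 10 were called lower by the study's rule and 0 higher. Nkx2-1 of the ventral forebrain had 74.2 and 0.789 TPM, and Dlx1 of forebrain interneurons had 71.9 and 0.969 TPM. The fold of Six3 lay between those of Dlx1 (74.3-fold lower) and Nkx2-1 (94.0-fold lower).

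Differentiated retina and lens genes were scarce in both libraries, whereas Six3 and Six6 were scarce in the E14-Sox2TA/WT library alone. Only 7 of 18 neural retina genes reached 1 TPM, and 7 had 0 reads in E14 (Crx, Nrl, Gnat1, Pde6b, Rcvrn, Vsx1 and Arr3), as did 3 in E14-Sox2TA/WT (Rcvrn, Nr2e3 and Arr3). A count of 0 allows up to 3 reads. Isl1 and Prox1, which other neurons also use, had 19.7 and 7.04 TPM and 10.9 and 3.99 TPM. Rbpms, a ganglion cell marker in the retina that smooth and heart muscle also express, was 5.72-fold higher, at 9.07 and 51.9 TPM. Only 5 of 16 lens genes reached 1 TPM, with a median of -0.23 that turned to 0.03 with no filter on level. Of these, Cryab, a chaperone of lens and muscle, had 22.3 and 18.9 TPM, Maf had 14.1 and 12.1 TPM, and the crystallins Crybb1 and Crybb3 had 56 and 8 reads and 150 and 35 reads.

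The partners that act with Six-family and Eya proteins, the Pax, Dach and Tle genes with Sobp and Gmnn, gave no common direction. Of 15 genes 6 were higher and 9 lower, with a median log2 ratio of -0.65, and the study's rule called 2 of 9 higher and 3 of 9 lower. Tle5, a short relative of the Groucho corepressors that Six3 and Six6 bind, had 468 and 190 TPM and was 2.47-fold lower (2.40 to 2.53). Tle2 had 20.3 and 5.88 TPM, and Tle3 had 49.7 and 31.3 TPM. Gmnn, a replication licensing inhibitor that binds Six3, was 4.20-fold higher (3.88 to 4.55), at 31.7 and 133 TPM. Pax6 and Dach1, the network partners named after their values were seen, had 9.72 and 2.62 TPM and 12.3 and 6.29 TPM.

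Among genes of the placodes, where Six4 and Eya genes act, more were lower than higher, as they were among all genes. Of the 18558 genes with at least 1 TPM in at least 1 library, 9739 were lower and 8819 higher. Of 18 genes of the preplacodal, otic and olfactory placodes 7 were higher and 11 lower, with a median log2 ratio of -0.50, and the study's rule called 2 of 10 higher and 5 lower. Among these, Dlx5 (41.6 and 1.88 TPM, 22.1-fold lower) is also a forebrain gene, while Sall4, also a pluripotency gene, was 6.07-fold higher at 6.80 and 41.2 TPM. Of 12 genes of placode-derived sensory neurons 5 were higher and 7 lower, with a median of -0.34, or -1.56 over the 5 that reached 10 TPM, of which 1 was called higher and 4 lower. By the rule on the counting interval the calls were even, with 4 of 16 higher and 4 lower. The neurotrophin receptors Ntrk2 (42.3 and 8.96 TPM) and Ntrk3 (24.2 and 7.56 TPM) and the proneural gene Neurog2 (26.3 and 6.65 TPM) were called lower, and Prph, a neurofilament-like protein of peripheral neurons, was 4.07-fold higher at 5.67 and 23.0 TPM.

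In muscle, the regulators were evenly divided and most contractile genes were lower. Of 14 myogenic regulators 7 were higher and 7 lower, and their median log2 ratio was -0.082 on TPM and 0.04 on FPKM, so its sign turned with the scaling. Myog, which drives terminal differentiation, had 19.9 and 10.2 TPM and was not called. Lbx1 of migrating muscle precursors had 0.591 and 3.35 TPM, and Mymx, a fusion peptide of myoblasts, was 8.53-fold higher at 1.79 and 15.3 TPM. Among 17 contractile genes, 15 were lower and the median was -0.85, and 6 of 12 were called lower. The embryonic and perinatal myosins Myh3 (24.7 and 5.34 TPM, 4.62-fold lower) and Myh8 (19.6 and 1.90 TPM, 10.3-fold lower) were among them, whereas Mylpf, at 185 and 112 TPM, was not called.

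In the tissues of Six2, the kidney and the craniofacial mesenchyme, most list genes had a positive log2 ratio. Six2 itself had a ratio of 0.768, with an interval (0.544 to 1.08) that includes no change, so its direction is not settled. Of 18 nephron genes 14 were higher and 4 lower, with a median log2 ratio of 0.66, and the study's rule called 3 of 9 higher and 2 lower. By the rule on the counting interval 9 of 20 were higher and 1 lower, against 18.0% of all genes higher and 13.6% lower. Cited1, expressed in nephron progenitors, had 19.8 and 62.4 TPM and was 3.16-fold higher (2.84 to 3.52), and Meox1, which somites also express, had 2.89 and 15.4 TPM. Lhx1, which neurons also express, was 3.78-fold lower at 21.0 and 5.55 TPM. Crym and Sall1, which with Cited1 had the highest TPM of the nephron list, were 1.64-fold and 1.44-fold lower. Neither was called. Of 14 craniofacial and tendon genes 12 were higher and 2 lower, with a median of 0.75. The study's rule called 0 of 6 higher and 2 lower, Dlx5 and Dlx6. By the rule on the counting interval 4 of 16 were higher and 2 lower, beside the same 18.0% and 13.6% of all genes. Twist1 of mesenchyme had 15.7 and 27.0 TPM, 1.72-fold higher.

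**Figure D5:**
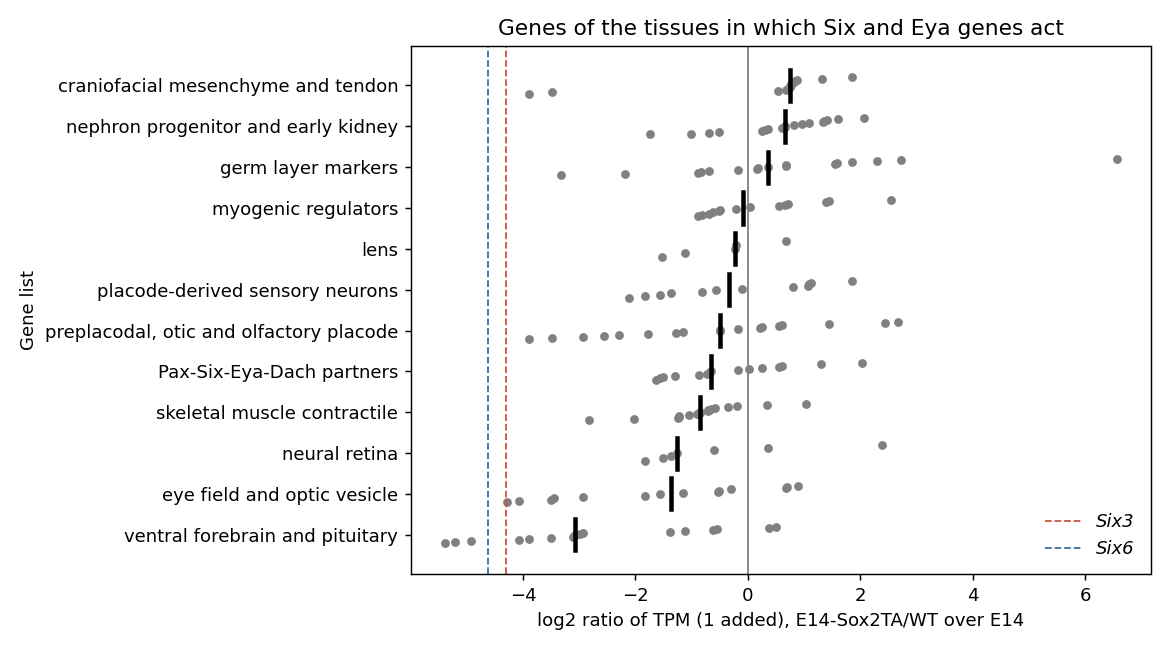
Log2 ratio of TPM with 1 added, E14-Sox2TA/WT over E14, of the genes with at least 1 TPM in at least 1 library in the 12 lists (points) and their medians (black bars), with dashed lines at Six3 and Six6. The ventral forebrain (-3.07) and eye field (-1.36) lists have the lowest medians, points of the ventral forebrain list lie left of both lines (Six3 at -4.30 and Six6 at -4.62), and the nephron (0.66) and craniofacial (0.75) lists have the highest.

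Sox2, the gene that carries the change, had 14585 reads in E14 and 8623 in E14-Sox2TA/WT, or 246 and 130 TPM. It was 1.89-fold lower (1.84 to 1.94), a smaller fold than those of Six3 and Six6, and its alleles are not separated in the table. Sox2 is expressed in neural progenitors as well as in ESCs. The rows of the members held few bases that reads could share with other genes. Of all stretches of 50 nt in the transcripts, 0.335% of those of Six3, 0.978% of those of Six2 and 0.459% of those of Six4 also occurred in another gene, and 0 of those of the other 6 members did. Between members, only Six3 and Six2 shared any, 2 stretches.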

How the data were processed

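The authors sequenced polyA RNA of 1 E14 and 1 E14-Sox2TA/WT teratoma library on a NovaSeq instrument. The authors deposited whole-number read counts per gene, FPKM, which scales counts by length and library size, and TPM for 45777 genes of mm10. The submitters' processing notes name bcl2fastq 2.20.0, Trimmomatic, HISAT2 2.1.0 and StringTie 2.1.3b, with builds hg19 and mm10, and no roles. The strand setting of the counting is not given in the sources used here. The label's protocol speaks of an ESC line, while the tissue label is teratoma.

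Ratios of TPM were taken gene by gene, with 95% Clopper-Pearson intervals from the read counts, and levels with exact Poisson intervals. No p-value was computed with 1 library per group. Log2 ratios had 1 added to each TPM unless called plain. Positions came from RefSeq GRCm38.p6, the build mm10, which matched 45675 genes, and exons and transcripts from GENCODE vM21. Promoter windows came from RefSeq and were cut to the bases before the start. The members and lists were chosen with earlier results of these data known. By rule, the text names the members, Sox2, rows that overlap a member, up to 5 genes of each list (the top 3 by TPM and the top 2 by absolute log2 ratio) and the 3 list genes nearest to Six3 and Six6. Some genes that this rule names are not reported here. Alternatives covered scaling (FPKM, library total, edgeR's TMM, median-of-ratios, centring), pseudocounts, filters, folds and windows. Protein identity between members was not analysed here. Scripts were checked on simulated data. Software was edgeR 4.0.16 in R 4.3.3, and matplotlib 3.10.9, scipy 1.17.1, pandas 2.3.3 and numpy 2.4.6 in Python 3.11.15.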

Additional observations from a re-analysis of the deposited data

How the results depend on the processing

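No paired analysis was possible because there was 1 library per group, and for the same reason no library could be left out. Six3 and Six6 were called lower under each scaling, fold limit and filter tried, except a filter of 10 TPM in both libraries, which they could not pass, so 0 members were then called lower. Six4 was called higher, making 1 member, with a filter of 1 TPM and with no filter. Of 155 alternatives for counts, contrasts, lists and neighbours, 142 stayed within a set limit of the main value, and none reversed a called direction. The limit was 1.5 times for counts. For the contrast it was an interval from reads, and for medians one from order statistics over genes. Over few genes that interval is wide, for neural retina (7 genes) from -1.83 to 2.39, so a median within it can still move far. The neural retina median went from -1.26 to 0.0 with no filter on level, and that of sensory neurons from -0.34 to -1.56 at 10 TPM. The median around Six2 went from -2.29 to -4.30 within 250 kb. Values outside the limit were, for the eye-field contrast, -3.60 on FPKM, -5.94 and -6.28 with 0.1 and 0.01 added, and -4.67 against Six4, Eya1, Eya2 and Eya4. List medians moved to -4.30 for ventral forebrain and pituitary with 0.1 added and -0.51 for contractile genes on FPKM. For craniofacial genes they were 0.92 by library total, 0.94 when centred and 0.97 with 0.1 added. The neighbours of Eya1 had a median of 0.99 within 1 Mb. Of 54 alternatives for single members 18 moved by more than the counting interval, in Six4, Six5, Eya1, Eya2 and Eya3. The plain log2 ratio of Six4 ran up to 1.94 by library total. Myogenic regulators had a positive median also by library total (0.06) and when centred (0.10).

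Over all genes the study's rule called 1253 higher and 2167 lower on TPM, but 1583 and 1655 on FPKM, 1578 and 1634 by library total, 1348 and 1967 by TMM, and 1557 and 1683 when centred. It called 3585 and 3508 with a filter of 1 TPM, 9156 and 6015 with none, 479 and 1122 with 10 TPM in both libraries, 2109 and 3742 at a fold of 1.5, and 663 and 1015 at a fold of 3. The interval rule called 4262 and 3236, or 5771 and 5242 at a fold of 1.5, and 2724 and 2873 with at least 50 reads. Depth limits Six2, and Six3 and Six6 in the E14-Sox2TA/WT library, where 27 and 46 reads leave the folds uncertain within the intervals given. Counting error does not cover differences between tumours or between pieces of a tumour.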
